A study of Mus musculus with 12 samples.

Results

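The ribosomal protein genes of both cellular ribosomes were described across 4 groups of mouse heart RNA: 86 genes of the cytosolic ribosome and 78 of the mitochondrial ribosome, 164 of the 22794 genes in the table. Members were taken by symbol. Names made of Rpl or Rps and a number, Rplp0, Rplp1, Rplp2 and Rpsa gave the cytosolic set, and names made of Mrpl or Mrps and a number gave the mitochondrial set. Ribosomal protein S6 kinases and pseudogenes with -ps in the name were left out, and a mean of at least 10 counts over the libraries was required. The members nearest above that minimum were Rps19bp1, Rps27rt and Rpl37rt, with means of 135, 222 and 297 counts. Just below it were Rpl32l at 6.67, Rps23rg1 at 1.92 and Rpl39l at 0.833. The rule used no difference between groups. Rpl10l and Rps4l, paralogs of Rpl10 and Rps4x, are not listed in the table.

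All animals were wild-type (WT) C57BL6 mice, and the RNA came from cardiomyocytes isolated from the heart. There were 3 libraries in each group. Sham saline mice had a sham operation and received saline, and sham JV101 mice had a sham operation and received JV101. NX saline mice underwent 5/6 nephrectomy, the removal of most kidney tissue, and received saline, and NX JV101 mice underwent the same operation and received JV101. Hearts were taken 16 weeks after surgery. The labels do not say what JV101 contains, and the title of the series speaks of gene therapy that recaps telomeres. Age, sex, dose and injection time are not stated in the labels. Nothing in the labels says whether each library is 1 animal, so the p-values speak only of the spread between these samples, and that spread may be technical.

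As background, the cytosolic ribosome translates nuclear mRNAs from a small and a large subunit. Most of its protein mRNAs begin with a terminal oligopyrimidine (TOP) tract, a C followed by pyrimidines at the cap, through which mTOR signalling and LARP1 control their translation and stability as a group. The mitochondrial ribosome translates only the mRNAs of mitochondrial DNA, which encode subunits of the respiratory chain, and its proteins are made in the cytosol and imported. Heart muscle is rich in mitochondria, and it also makes Rpl3l, a striated muscle paralog of Rpl3 that takes the place of Rpl3 in the large subunit.

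The sequences at the annotated transcription starts of the 2 sets were described by counts of windows with a motif, with no test between the sets. RefSeq promoters of GRCm38.p6, an older build than the GRCm39 of the counts, were found by symbol for 65 cytosolic and 69 mitochondrial members. They gave 77 and 75 windows of 300 bases, from 250 before to 50 after each annotated start. The next lines show 80 bases each, from 60 before to 20 after the start, and were chosen to show a pyrimidine start (Rps6, Rps27 and Rps21), the palindrome CTCGCGAG (Rps6 and Rps19), an ETS-type site (Mrpl3), an NRF1 core (Mrpl17) and a muscle paralog with none of these in the bases shown (Rpl3l). Capitals mark the motif for which a gene is shown. Each is written 5′ to 3′ on the strand of its gene. Rps21, Rps19 and Rpl3l have further annotated starts, which have none of these motifs in the same 80 bases.
Rps6: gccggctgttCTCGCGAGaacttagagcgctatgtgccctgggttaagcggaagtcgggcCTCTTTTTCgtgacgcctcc
Rps27: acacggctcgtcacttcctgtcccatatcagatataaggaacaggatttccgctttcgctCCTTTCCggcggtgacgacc
Rps21: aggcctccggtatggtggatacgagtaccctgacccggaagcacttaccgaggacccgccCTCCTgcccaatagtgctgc
Rps19: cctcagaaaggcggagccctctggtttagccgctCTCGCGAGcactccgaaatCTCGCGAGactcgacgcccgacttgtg
Rpl3l: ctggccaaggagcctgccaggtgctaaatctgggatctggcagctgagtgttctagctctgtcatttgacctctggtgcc
Mrpl3: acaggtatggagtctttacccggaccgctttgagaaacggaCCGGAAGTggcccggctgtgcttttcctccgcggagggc
Mrpl17: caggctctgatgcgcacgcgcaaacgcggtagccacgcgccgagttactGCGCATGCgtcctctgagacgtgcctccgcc
The windows lie at chr4:86857348-86857427 (minus strand), chr3:90213629-90213708 (minus strand), chr2:180257319-180257398 (plus strand), chr7:24884532-24884611 (plus strand), chr17:24727766-24727845 (plus strand), chr9:105053208-105053287 (plus strand) and chr7:105811068-105811147 (minus strand), in the order printed.

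A start at a C followed by 4 bases that are each C or T was annotated for 14 of 77 cytosolic windows (18.2%) and 0 of 75 mitochondrial windows. It was found in 2.51% of all 32851 windows in the table. Annotated starts can be off by a few bases, so a tract one base away is missed. On either strand and anywhere in the window, CTCGCGAG was found in 10.4% of cytosolic, 2.67% of mitochondrial and 0.919% of all windows. The ETS-type octamer CCGGAAGT was found in 15.6%, 16% and 3.89% in the same order, and the YY1-type AAGATGGC in 10.4%, 16% and 2.75%. The NRF1 core GCATGCGC was found in 3.9% of cytosolic, 10.7% of mitochondrial and 2.71% of all windows, and the GC box GGGCGG in 59.7%, 52% and 35.7%. No motif contains another, though single matches may share bases. Among 13964 windows of genes with a mean of at least 10 counts, these shares were 2.38% for the pyrimidine start, 1.7%, 7.28%, 4.09%, 4.68% and 59.8%, in the order above. The GC box was no more frequent in either set than in that background. A match describes letters only and shows no binding.

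Libraries held 26407100 to 33834200 counts, of which transcripts of mitochondrial DNA took 36.7% to 69.0%. Levels are given as CPM, the count relative to a library size scaled by the trimmed mean of M values (TMM), or as FPKM where genes are compared per length. All 10 cardiomyocyte markers were present in every library, led by Myh6 at 7252 to 22305 CPM. Other cells were present too: the 10 fibroblast markers summed to 245 to 1258 CPM, against 40198 to 71453 for the 10 cardiomyocyte markers. Atrial cardiomyocyte markers, summed, ranged from 57.0 to 2093 CPM. In such bulk RNA, fewer cells of a type and less RNA per cell cannot be told apart.

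Per length, cytosolic ribosomal protein transcripts were the more abundant. Their median FPKM was 142, with quartiles of 83.9 and 224, against 17.6 for the mitochondrial set, with quartiles of 9.88 and 38.0. The median of the cytosolic set was 5.92 to 10.8 times that of the mitochondrial set in each of the 12 libraries. Together the cytosolic members took 1.66% to 2.79% of the counts of nuclear genes and the mitochondrial members 0.456% to 0.594%.

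**Figure D1:**
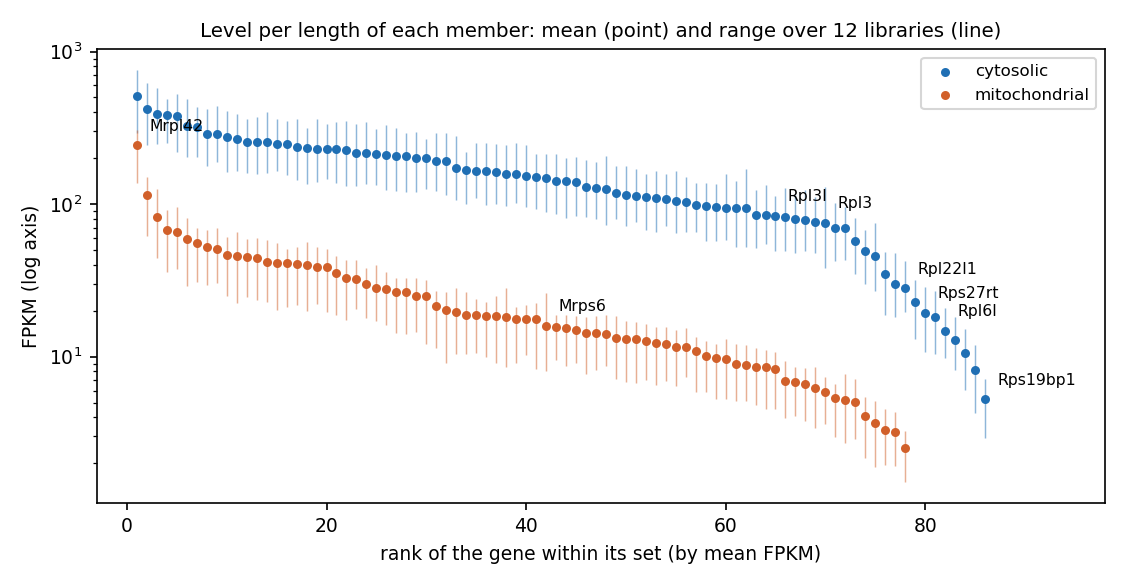
Mean FPKM (log axis) of each of 86 cytosolic and 78 mitochondrial ribosomal protein genes, ranked within its set, with a line from the lowest to the highest of 12 libraries. Most cytosolic genes lie above most mitochondrial genes, while Rps27rt, Rpl6l and Rps19bp1 lie at the low end of the cytosolic set and Mrpl42 at the top of the mitochondrial set.

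Within the cytosolic set, Rplp1, an acidic protein of the stalk that recruits translation GTPases, was highest at 510.1 FPKM (293 to 759 over libraries). It was followed by Rps29 at 421, Rpl41 at 392 and Rps2 at 384. The ranges of these genes overlapped over libraries, so their order is not fixed by these data. The other stalk proteins, Rplp0 and Rplp2, had 319.9 and 287 FPKM. The lowest was Rps19bp1 at 5.27, a partner of Rps19 and not a subunit, followed by the paralog Rps27l at 8.23 and by Rpl7l1 at 10.5, a paralog of Rpl7. The length implied by the counts and FPKM was 5136 bases for Rps15a, which had 18.2 FPKM, against a median of 808 bases in the set. It was 2748 bases for Rps27l and 2606 for Rpl7l1, and their FPKM rest on those lengths.

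In the mitochondrial set, Mrpl42 had 244 FPKM (137 to 304), at the level of many cytosolic members. Mrpl12, which also binds the mitochondrial RNA polymerase, followed at 115, and Mrps21 at 82.9. The lowest was Mrps10 at 2.53 FPKM, then Mrps25 at 3.23 and Mrpl17 at 3.31. These 3 had implied lengths of 5073, 6076 and 6712 bases, against a median of 1556.5, and their FPKM rest on those lengths.

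Most members of a set were high in the same libraries. To score a set, each member's log2 CPM was centred on its average across all 12 libraries, and the centred values were averaged within each library. In sham saline the cytosolic score was −0.33, −0.01 and 0.14 in replicates 1, 2 and 3, and in sham JV101 it was 0.11, −0.07 and −0.30. In NX saline it was −0.00, 0.03 and 0.05, and in NX JV101 0.01, 0.28 and 0.09. Sham saline replicate 1 and sham JV101 replicate 3 were the lowest, and NX JV101 replicate 2 the highest. Every group overlapped every other. In sham saline replicate 1, 1 of 86 cytosolic members was above its own mean over libraries, and in NX JV101 replicate 2 there were 85.

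The mitochondrial score was −0.11, −0.14 and 0.23 in the sham saline libraries and −0.13, 0.14 and 0.10 in the sham JV101 libraries. It was 0.20, −0.03 and −0.25 in the NX saline libraries and 0.03, 0.03 and −0.07 in the NX JV101 libraries. The extremes were sham saline replicate 3, with 78 of 78 members above their own mean, and NX saline replicate 3, with 1 of 78. Groups overlapped here too. The libraries at the extremes of the mitochondrial score were not those at the extremes of the cytosolic score.

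**Figure D2:**
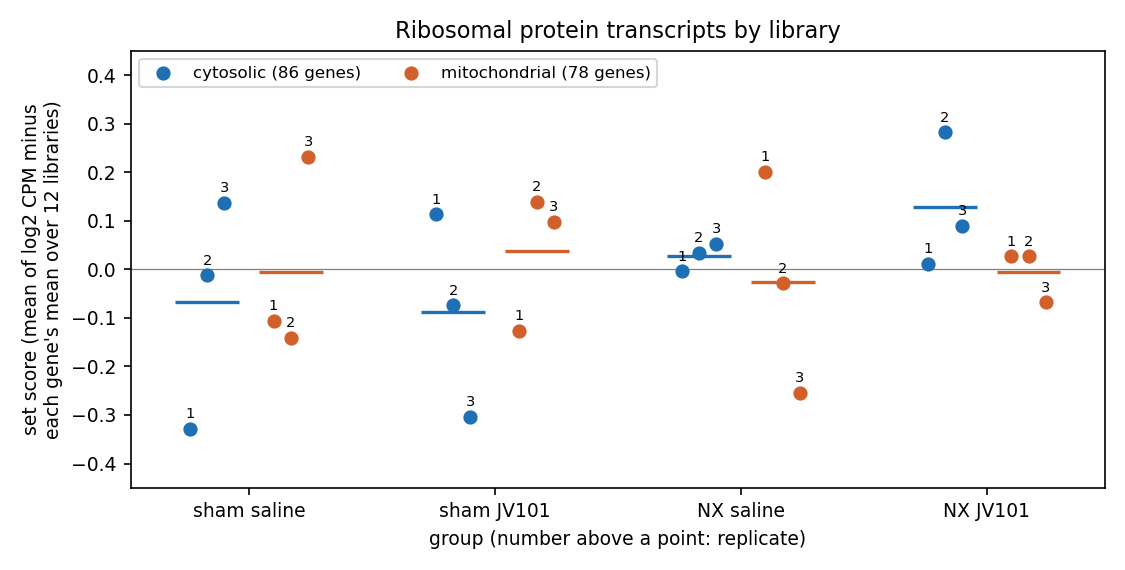
Score of the cytosolic (blue) and mitochondrial (orange) ribosomal protein set in each library, in log2 units, by group, with the replicate number above each point and a bar at the mean of 3 libraries. Cytosolic scores run from −0.33 to 0.14 in the sham saline libraries, while the NX saline libraries lie close together.

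As a description of likeness, each gene was set against the mean of the other members of its set over the 12 libraries. Pearson's r had a median of 0.93 in the cytosolic set and 0.77 in the mitochondrial set, and was above 0.5 for 81 of 86 and 73 of 78 members. These values share libraries, depth and scaling. The 5 cytosolic members below 0.5 were Rpl3l at −0.66, Rps19bp1 at −0.11, Rpl7l1 at 0.04, Rpl6l at 0.31 and Rps2 at 0.34. Rpl3l, Rps19bp1, Rpl7l1 and Rps2 were closer to the mitochondrial set, as was Rpsa. Rps19bp1, whose r to the mitochondrial set was 0.86, binds Rps19 and is no structural protein of the ribosome. The 5 mitochondrial members below 0.5 were Mrps18c at 0.35, Mrpl57 at 0.36, Mrpl3 at 0.42, Mrpl17 at 0.49 and Mrpl27 at 0.496. Mrpl33, Mrpl52, Mrps18c, Mrps21 and Mrps24, also 5 members, were closer to the cytosolic set.

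The spread of single members over all 12 libraries was smaller than over all genes tested and close to that of genes at 10 CPM or more. The SD of log2 CPM had a median of 0.19 in the cytosolic and 0.20 in the mitochondrial set, against 0.33 over all 14412 genes tested and 0.22 over the 6834 genes at 10 CPM or more. Rpl4, Rps2 and Rpl8 varied least among the cytosolic members, with SDs of 0.09, 0.10 and 0.10. Rps27a, which encodes ubiquitin fused to a small-subunit protein, varied most at 0.49, followed by Rpl3 at 0.36, Rps27rt at 0.33, Rpl3l at 0.31 and Rpl22l1 at 0.30. In the mitochondrial set Mrps6 had 0.32, Mrpl19 0.30, Mrpl20 0.29, and Mrpl45 and Mrps27 0.28.

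Fibroblast and macrophage markers were lowest in sham JV101 replicate 3 and sham saline replicate 1, the libraries lowest in the cytosolic score. They were highest in NX JV101 replicate 2, the library highest in that score. The fibroblast list, 10 of 10 markers detected in all libraries with none at 0, had its lowest scores in the same libraries: −1.37 in sham JV101 replicate 3 and −0.84 in sham saline replicate 1. Its highest were 1.07 in NX JV101 replicate 2 and 0.98 in sham JV101 replicate 1. Summed fibroblast CPM was 375 to 699 in the sham saline libraries, 245 to 1184 in the sham JV101 libraries, 528 to 799 in the NX saline libraries and 528 to 1258 in the NX JV101 libraries. The 10 macrophage markers, none at 0, summed to 199.7 to 513, 149.6 to 708, 362 to 489.7 and 278 to 779 CPM in that order, and their scores in the 4 libraries just named were −1.39, −0.83, 1.02 and 0.85. The 10 endothelial markers, none at 0, summed to 786 to 1057, 379.7 to 2088, 653 to 2138 and 1088 to 2017 CPM. Endothelial and mural cell markers did not follow the cytosolic score in sham saline replicate 1: their scores there, 0.01 and 0.04, were the highest of the sham saline group, beside −0.26 and −0.61 in replicate 2 and −0.47 and −0.37 in replicate 3. The cardiomyocyte score was 0.30, 0.17, −0.37 and −0.41 in the 4 libraries at the ends of the fibroblast score. Sham saline replicate 3 had the next highest cytosolic score, 0.14, without such marker scores. Its fibroblast score was 0.07, its macrophage score 0.31 and its cardiomyocyte score 0.19. The part of these other cells in the cytosolic score was not tested.

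**Figure D3:**
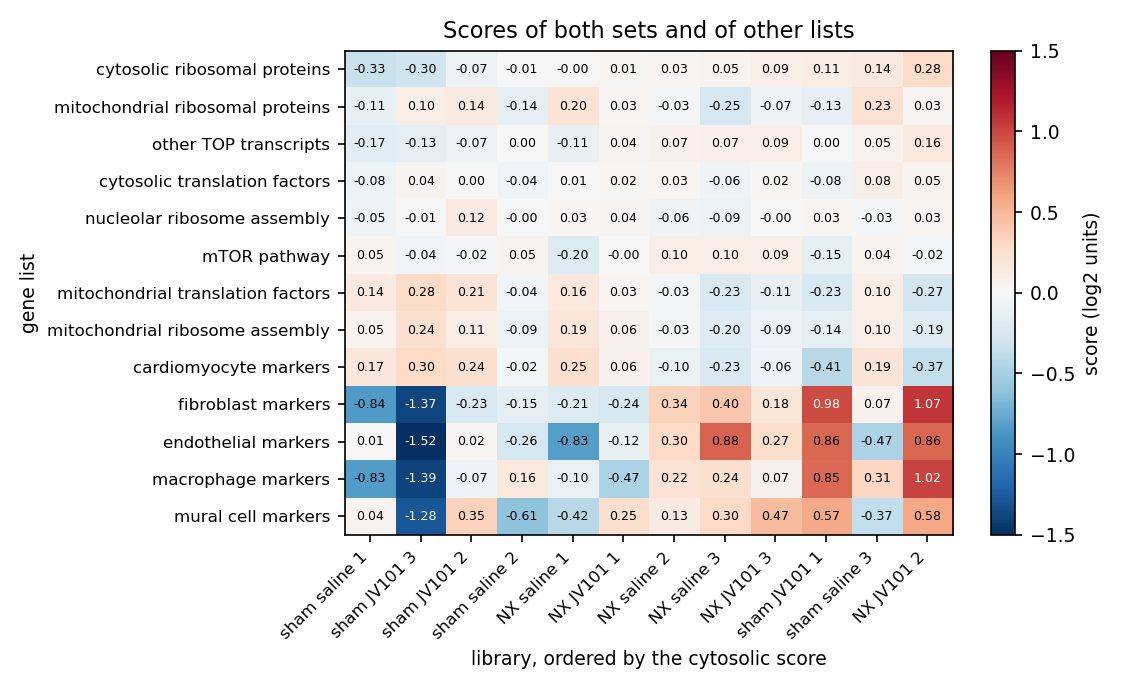
Scores (log2 units, printed in each cell) of both ribosomal protein sets and of 11 other gene lists in the 12 libraries, ordered from the lowest to the highest cytosolic score. The libraries at the left end are also lowest in fibroblast and macrophage markers, and the one at the right end is highest in them, while the mitochondrial rows follow another order.

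No ribosomal protein gene passed an adjusted p of 0.05 in any of the 6 comparisons by edgeR's quasi-likelihood test, and neither did any other of the 14412 genes (0%). At an unadjusted p under 0.05, 524 genes differed between NX saline and sham saline, 345 between NX JV101 and NX saline, 245 between sham JV101 and sham saline, 299 between NX JV101 and sham JV101, 895 between NX JV101 and sham saline, and 256 in the interaction. Among them were 2 members, Mrpl17 and Rpl3, each in 1 comparison. DESeq2 called 1, 4, 0, 0, 3 and 0 genes in the same order, none of them a member. All 164 members passed the filter on low counts. Each of the 6 mitochondrial medians changed sign when some single library was left out. The comparisons share groups, so their values are given side by side and are not independent.

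**Figure D4:**
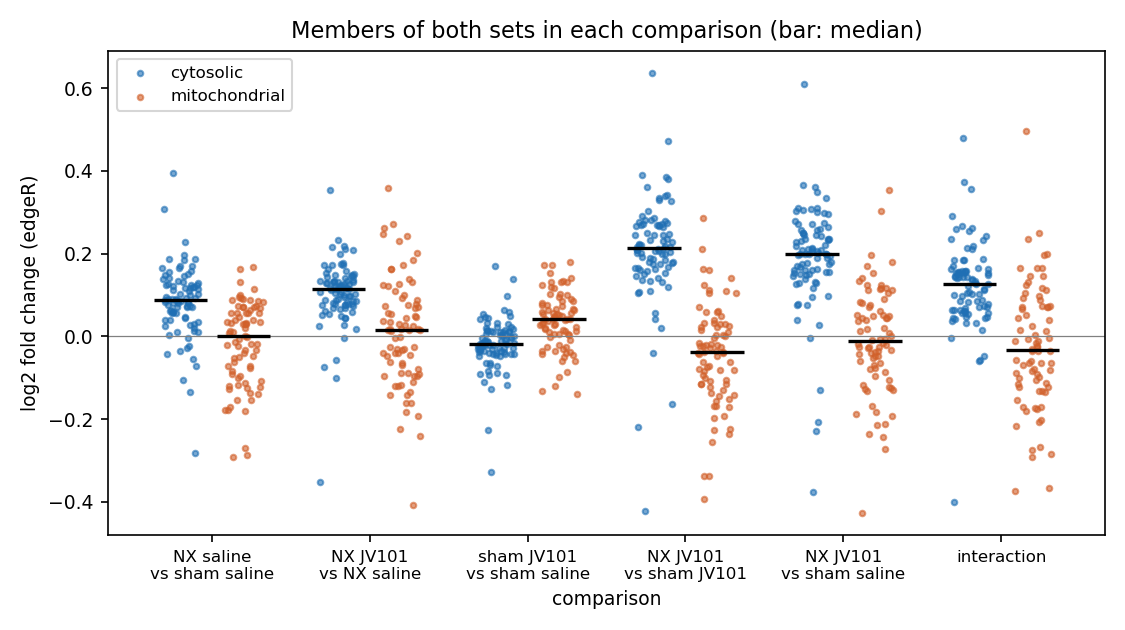
Log2 fold changes of the 86 cytosolic (blue) and 78 mitochondrial (orange) members in each of 6 comparisons, 1 point a gene, with a bar at the median. The cytosolic points lie mostly above 0 in every comparison but sham JV101 against sham saline, with a median of 0.21 for NX JV101 against sham JV101, while the mitochondrial points straddle 0. No single point passed the test.

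NX saline and sham saline differ in surgery alone, without JV101. After nephrectomy in these mice, the cytosolic members had a median log2 fold change of 0.09, with 76 of 86 above 0. The mitochondrial members had −0.00, with 39 of 78. The median over all genes was 0.02, with 52.9% above 0. The cytosolic value rests on sham saline replicate 1: without it the cytosolic median was −0.03, and without sham saline replicate 3 it was 0.19. CPM of the groups did not overlap for 1 cytosolic member, Rpl3, which was higher, and for 0 mitochondrial members. Over all genes 4.9% were higher and 5.92% lower in this way.

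JV101 after nephrectomy, NX JV101 against NX saline, gave a cytosolic median of 0.11, with 81 of 86 above 0, and a mitochondrial median of 0.02, with 42 of 78. The median over all genes was 0.01. Groups did not overlap for 13 cytosolic members, all higher, among them Rpl4, Rpl7a, Rpl11, Rpl15, Rpl36, Rps10, Rps16 and Rps21. Of the mitochondrial members, Mrpl17, Mrpl57 and Mrps18c were higher in this sense and Mrpl45 lower. The background was 4.52% higher and 3.69% lower. NX saline libraries lay close together in the cytosolic score. Other markers differed more in this comparison. All 10 mesothelial markers were lower, with a median of −1.20 and 9 at an unadjusted p under 0.05, and summed to 60.9 to 127 CPM in the NX saline libraries and 36.5 to 45.4 in the NX JV101 libraries. Of 8 lymphocyte markers tested 7 were lower, with a median of −2.26 and 6 at an unadjusted p under 0.05, at sums of 3.58 to 16.4 and 1.07 to 2.64 CPM. All 7 atrial markers were higher, with a median of 1.67. None passed the adjusted test by edgeR, and their part in the ribosomal values was not tested. Leaving out NX JV101 replicate 2 gave a cytosolic median of 0.03, and leaving out replicate 1 of that group 0.17.

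In sham mice JV101 came with a cytosolic median of −0.02, with 30 of 86 members above 0, and a mitochondrial median of 0.04, with 58 of 78. All genes had 0.03. No member was free of overlap between these groups, against 1.76% of all genes higher and 2.07% lower. The cytosolic median ran from −0.13 without sham saline replicate 1 to 0.09 without sham saline replicate 3. It was 0.01 without sham saline replicate 2, and, leaving out sham JV101 replicates 1, 2 and 3 in turn, −0.12, −0.01 and 0.07, so its sign turned with single libraries.

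With JV101 given to both, NX JV101 against sham JV101, the cytosolic median was 0.21, with 82 of 86 above 0, and the mitochondrial median −0.04, with 28 of 78. All genes had 0.00. Leaving out sham JV101 replicate 3 gave a cytosolic median of 0.11, and leaving out replicate 1 of that group 0.34. Without NX JV101 replicate 2 it was 0.14. Rpl4, Rpl7a, Rpl8, Rpl15, Rpl22, Rpl23, Rpl24 and Rpl36, 8 cytosolic members, were higher without overlap and 0 lower. Mrpl30, Mrpl32, Mrpl52 and Mrps24 were higher and Mrps22 lower. The background was 2.69% higher and 2.42% lower.

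NX JV101 against sham saline, which differ in surgery and in injection, gave 0.20 for the cytosolic set, with 81 of 86 above 0, and −0.01 for the mitochondrial set, with 36 of 78. All genes had 0.03. Without sham saline replicate 1 the cytosolic median was 0.08, without sham saline replicate 3 0.31 and without NX JV101 replicate 2 0.12. Rpl3, Rpl22, Rpl27, Rpl30, Rpl37rt, Rpl39, Rps16, Rps18 and Rps21, 9 members, were higher without overlap, and Mrpl37 and Mrpl45 lower, against a background of 10.2% higher and 8.23% lower. The cytosolic share is close to that background.

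The interaction, the difference between the JV101 effect in nephrectomised and in sham mice, had a cytosolic median of 0.13, with 81 of 86 above 0, and a mitochondrial median of −0.03, with 31 of 78, beside −0.03 over all genes. The cytosolic median ran from 0.02 without sham JV101 replicate 3 to 0.24 without sham JV101 replicate 1. It was 0.24, 0.08 and 0.03 without sham saline replicates 1, 2 and 3 in turn, and 0.04 without NX JV101 replicate 2. Without sham saline replicate 1 and sham JV101 replicate 3, the pair lowest in fibroblast markers, the cytosolic medians were −0.03 for NX saline against sham saline, 0.10 for NX JV101 against NX saline, 0.11 for NX JV101 against sham JV101 and 0.06 for NX JV101 against sham saline. Under the same setting the median was −0.06 for sham JV101 against sham saline and 0.15 for the interaction, with 84 of 86 above 0. Leaving these libraries out was chosen after the data were seen. By limma on log2(FPKM + 1), whose library size includes the transcripts of mitochondrial DNA, the cytosolic medians were 0.43 for NX JV101 against NX saline, 0.41 against sham JV101 and 0.50 against sham saline, the mitochondrial medians 0.34, 0.15 and 0.27, and the medians of all genes 0.21, 0.11 and 0.18.

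Both subunits were described apart, with no test between them. The split follows the symbol alone, Rpl or Mrpl for large and Rps or Mrps for small. Rps19bp1, which is not a subunit, is thus counted with the small-subunit members. So is Mrps36, which was not counted as a core subunit. Between NX JV101 and sham JV101 the 52 large-subunit members had a median of 0.20, with 50 above 0, and the 34 small-subunit members 0.24, with 32 above 0. Between NX JV101 and NX saline these were 0.10 and 0.13. For the mitochondrial ribosome, the 49 large-subunit and 29 small-subunit members had −0.04 and −0.02 in the first comparison and 0.02 and 0.01 in the next. Of the 77 cytosolic members that are core subunits, leaving out paralogs, retrogene copies and Rps19bp1, 76 were above 0 between NX JV101 and sham JV101.

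Rpl3, the large-subunit protein near the peptidyl transferase centre, had the smallest p of the cytosolic members. It had 78.7, 91.2 and 102 CPM in the sham saline libraries, 141, 82.0 and 75.6 in the sham JV101 libraries, 105, 116 and 136 in the NX saline libraries and 117, 159.8 and 138 in the NX JV101 libraries. All 3 NX JV101 and all 3 NX saline libraries were above all 3 sham saline libraries, while sham JV101 replicate 1 stood with the nephrectomised mice. The log2 fold change was 0.61 (SE 0.23) for NX JV101 against sham saline, with an unadjusted p of 0.0226 and an adjusted p of 0.780 by edgeR's quasi-likelihood test with Benjamini-Hochberg adjustment. It was 0.39 (SE 0.23) for NX saline against sham saline and 0.47 (SE 0.23) for NX JV101 against sham JV101.

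Rpl3l, the muscle paralog, had 162, 142 and 176 CPM in the sham saline libraries, 115, 187 and 195 in the sham JV101 libraries, 186, 158 and 129 in the NX saline libraries and 151, 103 and 116 in the NX JV101 libraries. The lowest libraries were NX JV101 replicates 2 and 3 and sham JV101 replicate 1, and every group overlapped every other. The log2 fold change was −0.35 (SE 0.23) between NX JV101 and NX saline, −0.42 (SE 0.23) between NX JV101 and sham JV101 and −0.38 (SE 0.23) between NX JV101 and sham saline, and none passed the adjusted test.

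Per length the ratio of Rpl3l to Rpl3 was 1.73, 1.31 and 1.45 in the sham saline libraries and 0.682, 1.92 and 2.16 in the sham JV101 libraries. It was 1.49, 1.14 and 0.797 in the NX saline libraries and 1.09, 0.543 and 0.704 in the NX JV101 libraries. The paralog exceeded Rpl3 in all 3 sham saline libraries and in 1 of 3 NX JV101 libraries. The mean was 1.497 ± 0.214 in the sham saline libraries and 0.779 ± 0.281 in the NX JV101 libraries (SD, n = 3), without overlap. A 2-sided exact permutation test of log2 ratios gave p = 0.1, the smallest 3 against 3 libraries allow, and 0.667 after Benjamini-Hochberg adjustment over 20 comparisons of 4 paralog pairs. The library with the lowest ratio, NX JV101 replicate 2, had the highest fibroblast score, and sham JV101 replicate 1, with the next highest, had the next lowest ratio. The part of other cells in this ratio was not tested.

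**Figure D5:**
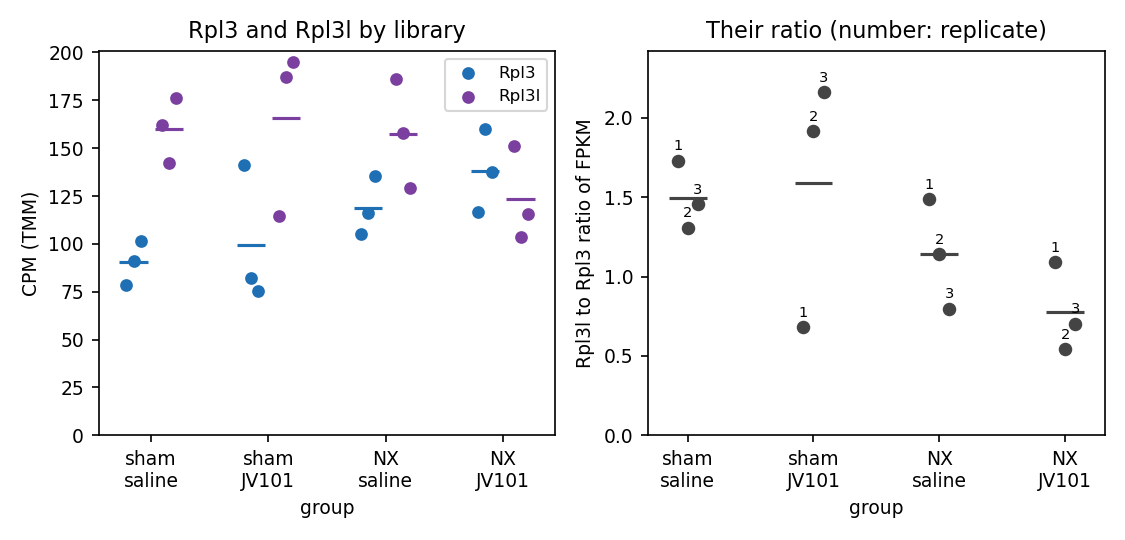
Left, CPM of Rpl3 (blue) and Rpl3l (purple) in each library by group, with a bar at the mean of 3. Right, the ratio of their FPKM, with the replicate number, which is above 1 in the 3 sham saline libraries and below 1 in NX JV101 replicates 2 and 3.

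Of the other paralog pairs, Rpl22, a large-subunit protein, had 67.2, 68.5 and 80.2 CPM in the sham saline libraries and 83.1, 86.7 and 89.5 in the NX JV101 libraries, which did not overlap, with a log2 fold change of 0.26 (SE 0.12, adjusted p = 0.780 by edgeR). In sham JV101 and NX saline it had 82.6, 72.8 and 70.3 and 85.1, 82.1 and 78.4 CPM. Its paralog Rpl22l1 was scattered, from 9.01 to 16.7 CPM, and the ratio of Rpl22l1 to Rpl22 per length was 0.557 to 1.17 with every group overlapping every other. Rps27l, a p53 target, stood at 0.0317 to 0.0523 of Rps27 per length. That ratio rests on implied lengths of 2748 bases for Rps27l and 346 for Rps27, whose mean CPM over libraries were 21.9 and 70.1. The ratio of Rpl36al to Rpl36a was 0.665 to 0.755 in the sham saline libraries, 0.677 to 0.816 in the sham JV101 libraries, 0.626 to 0.719 in the NX saline libraries and 0.636 to 0.639 in the NX JV101 libraries. NX JV101 was thus below both sham groups without overlap, with exact p = 0.1 against each, adjusted p = 0.667.

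Rps21, a small-subunit protein with the pyrimidine tract printed above at 1 of its 2 annotated starts, had 56.3, 64.5 and 71.5 CPM in the sham saline libraries, 79.2, 66.7 and 43.9 in the sham JV101 libraries, 62.7, 57.8 and 73.5 in the NX saline libraries and 76.0, 93.1 and 78.9 in the NX JV101 libraries. NX JV101 was above NX saline in every pairing, and sham JV101 overlapped both. The log2 fold change between NX JV101 and NX saline was 0.35 (SE 0.20), the smallest p of the cytosolic set in that comparison, with an adjusted p of 1.00 by edgeR. Rps10, another small-subunit protein, had 0.21 (SE 0.15), and Rpl39, a short protein of the peptide exit tunnel, 0.23 (SE 0.19).

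Rps27, with the pyrimidine start CCTTTCC, had 77.1, 62.9 and 45.9 CPM in the sham JV101 libraries and 69.9, 91.3 and 82.3 in the NX JV101 libraries, with a log2 fold change of 0.39 (SE 0.20). Sham JV101 replicate 3 was the lowest of all libraries, and replicate 1 overlapped NX JV101. Rps16 had 75.3, 101.4 and 102 CPM in the sham saline libraries and 108, 136 and 113 in the NX JV101 libraries, without overlap, and 0.36 (SE 0.19). Rps27a, the most variable member, had 40.3, 69.5 and 102 CPM in the sham saline libraries, 69.8, 54.3 and 44.8 in the sham JV101 libraries, 78.8, 91.8 and 66.0 in the NX saline libraries and 50.3, 111 and 101.4 in the NX JV101 libraries. Its largest difference, 0.64 (SE 0.35) between NX JV101 and sham JV101, came with overlapping groups.

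Rps6, the substrate of S6 kinase, had 150.2 ± 20.6 CPM in the sham saline libraries, 144 ± 23.4 in the sham JV101 libraries, 156 ± 16.5 in the NX saline libraries and 166 ± 21.4 in the NX JV101 libraries (mean ± SD, n = 3). Rps19, the protein most often mutated in Diamond-Blackfan anaemia, had 96.1 ± 14.3, 91.4 ± 19.8, 103 ± 12.5 and 110.2 ± 16.1 CPM in that order. Rpl5 and Rpl11, which with 5S rRNA can bind Mdm2, had log2 fold changes of 0.14 (SE 0.15) and 0.20 (SE 0.14) between NX JV101 and sham JV101. Rpl13a, part of a complex that represses translation of inflammatory mRNAs, had 0.28 (SE 0.17), and Rps3, which also acts in DNA repair, 0.15 (SE 0.16). In the same comparison the values were 0.22 for Rpl10, 0.27 for Rps4x and 0.21 for Rpl12.

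For the stalk proteins, between NX JV101 and sham JV101, Rplp1 and Rplp2 had 0.21 (SE 0.18) and 0.25 (SE 0.17), while Rplp0, which anchors them, had 0.04 (SE 0.14). Rpsa, a small-subunit protein also known as a laminin receptor, had 0.02 (SE 0.14). Rps2, a small-subunit protein at the mRNA entry site, had −0.04 (SE 0.13). Whether Rplp0 differed from its partners was not tested.

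Copies near-identical to another gene are uncertain, because the counting could divide reads between them. Rps27rt, a retrogene copy of Rps27, had 3.92 to 8.50 CPM, with 0.31 (SE 0.25) for NX saline against sham saline. Rpl37rt had 6.06 to 10.9 CPM and Rpl6l 11.1 to 15.7. Rpl7l1 had log2 fold changes of −0.28 (SE 0.18) in the NX saline libraries and −0.23 (SE 0.18) in the NX JV101 libraries, both against sham saline, and with an adjusted p of 0.994 for the first by edgeR.

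Mrpl17, a large-subunit protein of the mitochondrial ribosome whose window printed above holds the NRF1 core, was the 1 mitochondrial member at an unadjusted p under 0.05. It had 21.0, 20.3 and 23.1 CPM in the sham saline libraries, 22.4, 22.1 and 22.2 in the sham JV101 libraries, 20.4, 19.4 and 18.6 in the NX saline libraries and 23.7, 24.4 and 21.3 in the NX JV101 libraries. NX saline was the lowest group, without overlap with NX JV101. The log2 fold change between them was 0.25 (SE 0.11), with an unadjusted p of 0.0492 and an adjusted p of 1.00 by edgeR's quasi-likelihood test. Mrpl57 and Mrps18c, which also did not overlap, had 0.24 (SE 0.12) and 0.26 (SE 0.15).

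Mrpl45, which lies at the tunnel exit and helps hold the ribosome to the inner membrane, was lowest in the NX JV101 libraries. It had 37.7, 43.6 and 46.0 CPM in the sham saline libraries, 31.4, 47.4 and 45.5 in the sham JV101 libraries, 54.4, 35.4 and 35.8 in the NX saline libraries and 33.0, 31.5 and 30.2 in the NX JV101 libraries. NX JV101 lay below sham saline and NX saline in every pairing and overlapped sham JV101 through replicate 1 of that group. The log2 fold changes were −0.41 (SE 0.20), −0.39 (SE 0.20) and −0.43 (SE 0.20) against NX saline, sham JV101 and sham saline, with adjusted p of 1.00, 0.999 and 0.780 by edgeR. In contrast Mrpl32, which is processed in the matrix by the m-AAA protease before assembly, had 10.6, 12.4 and 16.6 CPM in the sham saline libraries and 17.7, 15.8 and 17.1 in the NX JV101 libraries, which overlapped, and a log2 fold change of 0.35 (SE 0.18).

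Mrpl3, a large-subunit protein whose loss causes cardiomyopathy and whose window above holds the ETS-type octamer, had 68.5, 58.9 and 66.8 CPM in the sham saline libraries, 47.8, 67.9 and 72.7 in the sham JV101 libraries, 51.6, 59.96 and 49.6 in the NX saline libraries and 59.7, 51.3 and 50.01 in the NX JV101 libraries. The groups overlapped, with log2 fold changes of −0.27 (SE 0.17) for NX saline and −0.27 (SE 0.17) for NX JV101, against sham saline. Mrpl44 and Mrps22, also cardiomyopathy genes, had 0.01 (SE 0.19) and −0.24 (SE 0.18) in the comparison of NX JV101 with sham saline, and Mrps16 0.17 (SE 0.14). Mrpl12 had 98.7, 94.0 and 127 CPM in the sham saline libraries and 104, 118 and 96.5 in the NX JV101 libraries, again overlapping.

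Mrps6, a small-subunit protein and the most variable mitochondrial member, had 8.52, 11.7 and 18.1 CPM in the sham saline libraries, with replicate 3 the highest of all libraries, and 0.36 (SE 0.26) between NX JV101 and NX saline. Mrpl19 and Mrps27 were each highest in a different group, at 26.6 CPM in NX saline replicate 1 and 36.1 CPM in sham JV101 replicate 3. Mrps2 had −0.34 (SE 0.17) and Mrpl19 −0.34 (SE 0.24) between NX JV101 and sham JV101. Mrps12, Mrps5 and Mrpl10 had 0.07, −0.12 and −0.12 in that comparison, with SEs of 0.16, 0.19 and 0.19. Dap3, Ptcd3, Chchd1, Aurkaip1 and Gadd45gip1, subunits outside the symbol rule, had a median of −0.03.

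The smaller differences of the named members are given here. In sham mice, JV101 against saline gave −0.33 (SE 0.35) for Rps27a, −0.23 (SE 0.25) for Rpl22l1 and −0.12 (SE 0.17) for Rplp2 on the lower side. On the higher side Rpl37rt had 0.17, Rpl3 0.14 and Rpl22 0.06. The groups overlapped for each of these 6 genes. Of the mitochondrial members, Mrpl53, Mrpl50 and Mrps2 had 0.17, 0.17 and 0.15, and Mrps15, Mrps36 and Mrps6 −0.13, −0.12 and −0.14. Mrps36, known as a subunit of the oxoglutarate dehydrogenase complex, was not among the 77 mitochondrial members counted as core subunits. After nephrectomy with saline, Mrpl27 had 0.16 and Mrpl1 −0.29 (SE 0.20). With JV101 added, Mrpl39 and Mrps22 had −0.19 and −0.22 against NX saline, and Mrpl20 and Mrpl37 0.30 and −0.24 against sham saline. In the interaction Mrps6 had 0.50 (SE 0.37), Mrps9 −0.28 (SE 0.26) and Rps21 0.37 (SE 0.29), while Rpsa and Rps19bp1 had −0.06 and −0.06.

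The rest of the translation pathway was taken from lists drawn up by function, and no gene of them passed the adjusted test by edgeR in any comparison. The lists share genes, so their medians are not separate. Eef1a1 and other elongation and initiation factors are in both the TOP and the translation factor list, and Npm1 is in the TOP and nucleolar lists. Rack1, in the TOP list, is also a ribosomal protein outside the symbol rule. Of 20 other TOP transcripts, such as elongation factors, 16 were above 0 between NX JV101 and sham JV101, with a median of 0.18, and 17 between NX JV101 and NX saline, with 0.10. Eef1a1, the elongation factor that delivers aminoacyl-tRNA, had 493 ± 45.9 CPM in the sham saline libraries and 816 ± 265 in the NX JV101 libraries (mean ± SD, n = 3). The log2 fold change between these was 0.73 (SE 0.42). Eef1a1 had 548 ± 343 CPM in the sham JV101 libraries and 674 ± 265 in the NX saline libraries. Npm1, a nucleolar chaperone with a TOP mRNA, had 62.7 ± 8.35 CPM in the sham saline libraries and 74.1 ± 5.25 in the NX JV101 libraries. For 39 cytosolic translation factors the median was 0.00 between NX JV101 and sham JV101, for 41 nucleolar assembly genes −0.06, and for 21 genes of the mTOR pathway −0.01. At an unadjusted p under 0.05 by edgeR, 1 gene of the mTOR list was higher in that comparison, the mTOR inhibitor Ddit4. In the TOP, translation factor and nucleolar lists 0 genes differed. Larp1, the TOP-binding protein, had 66.7 ± 7.80 CPM in the sham saline libraries and 53.2 ± 2.03 in the NX JV101 libraries, a log2 fold change of −0.33 (SE 0.16). Ddit4 had 72.6 ± 17.5 CPM in the sham saline libraries and 27.0 ± 1.57 in the sham JV101 libraries. It had 43.5 ± 17.1 in the NX saline libraries and 56.9 ± 33.4 in the NX JV101 libraries. Of 12 p53 targets, listed because free ribosomal proteins can stabilise p53, 7 were above 0 between NX JV101 and sham saline, with Bax at 7.17 ± 0.260 and 11.03 ± 1.22 CPM.

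Genes that serve the mitochondrial ribosome lay mostly below 0 between NX JV101 and sham JV101, and none of them passed the test. Of 34 mitochondrial translation factors measured, 32 were below 0, with a median of −0.22, and of 30 genes of mitochondrial ribosome assembly and rRNA 25 were below 0, with −0.15. Of all genes 50.6% were above 0. Against sham saline the medians were −0.23 and −0.05, and after nephrectomy alone −0.11 and −0.04. Sham JV101 against sham saline gave 0.02, with 20 of 34 above 0, and 0.05, with 21 of 30. Noa1, a GTPase of small-subunit assembly, had 13.9 ± 1.58 CPM in the sham saline libraries and 9.44 ± 0.877 in the NX JV101 libraries, a log2 fold change of −0.56 (SE 0.18, adjusted p = 0.780 by edgeR). Ears2, the mitochondrial glutamyl-tRNA synthetase, had 7.97 ± 1.00 and 5.30 ± 0.327. The translation factor scores were −0.23, 0.21 and 0.28 in sham JV101 replicates 1, 2 and 3. In NX JV101 they were 0.03, −0.27 and −0.11, so the groups overlapped. The highest and lowest of these, sham JV101 replicate 3 and NX JV101 replicate 2, were the libraries with the lowest and the highest fibroblast scores. The 13 protein genes of mitochondrial DNA, which this ribosome translates, had a median of −0.36, with 13 of 13 below 0, in the comparison of NX JV101 with sham JV101. Their scores overlapped, at −0.27, 0.63 and −0.33 in the sham JV101 libraries and 0.28, −0.66 and −0.71 in the NX JV101 libraries. All 13 were also below 0 for NX JV101 against NX saline (−0.66) and sham saline (−0.62). The same held for sham JV101 against sham saline (−0.27). For NX saline against sham saline the median was 0.01, with 7 of 13 above 0. The part of the makeup of cells in these values was not tested.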

How the data were processed

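Poly(A) RNA of heart cardiomyocytes, 1.3 µg per library, was sequenced from 12 samples in 4 groups of 3. The authors deposited a table of raw counts per gene and a table of FPKM. Per the submitters' processing notes, fastp, HISAT2 and HTSeq were used with GRCm39. No version, annotation or use of strand is given in the sources used here, so reads of overlapping and antisense genes may not be separated. In the deposited FPKM table the length implied by counts and FPKM was the same in every library, and the library size included transcripts of mitochondrial DNA.

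Columns were matched to samples by name. Of 22794 genes, 14412 passed filterByExpr in edgeR 4.0.16 (minimum count 10, minimum total 15) under R 4.3.3. TMM scaling and the quasi-likelihood test (glmQLFit, glmQLFTest) were fitted over all 4 groups, with Benjamini-Hochberg adjustment over all genes tested and a threshold of 0.05. Log2 CPM used a prior count of 2. Replicates within a group differed by more than sampling noise. FPKM were used for levels and paralog ratios, the latter with exact permutation tests.

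Members, lists and tests were chosen with earlier results of these data known. Named genes were the 3 members of each set and direction with the smallest p in each comparison, paralog pairs, stalk and other well-known members, the highest, the lowest and the 5 most variable of each set, and the 2 genes with the smallest p of each other list. Genes named for groups that do not overlap, and further genes named by level, low spread or likeness, were chosen after their values were seen. Alternatives were other filters and scalings, DESeq2 1.42.0, limma 3.58.1 on log2 FPKM, a fit on the groups compared, a replicate block and leaving out libraries. The test was checked on counts simulated with the estimated spread, with a change set for randomly drawn genes between NX saline and sham saline. It called 26 of 99 genes changed 2-fold, 74 of 99 changed 4-fold and 2 of 13975 unchanged. Most 2-fold changes of these randomly drawn genes were thus missed. In that comparison the median SE was 0.17 for cytosolic and 0.18 for mitochondrial members, against 0.27 over all genes tested. The share of changed members that would be called was not measured. A few genes are not reported here by name.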

Additional observations from a re-analysis of the deposited data

How the results depend on the processing

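No member passed the test under any of 25 settings, so no call turned. The sign of the cytosolic medians was kept under other filters, scalings and DESeq2, but not for sham JV101 against sham saline on the FPKM scale (0.091 and 0.091 at pseudocounts of 1 and 0.1). The mitochondrial median for NX JV101 against NX saline turned to −0.011 with RLE factors, −0.012 with DESeq2, −0.00413 with a filter at 5 CPM, −0.00245 in a fit of the groups compared and −0.000698 without genes of mitochondrial DNA. For NX saline against sham saline, at −0.000264, it was 0.028 with that filter, and above 0 by at most 0.00371 with RLE factors, DESeq2, no filter and the groups compared. Leaving out single libraries gave cytosolic medians of −0.031 to 0.19 for NX saline against sham saline, 0.033 to 0.17 for NX JV101 against NX saline, −0.13 to 0.087 for sham JV101 against sham saline, 0.11 to 0.34 for NX JV101 against sham JV101, 0.076 to 0.31 for NX JV101 against sham saline and 0.019 to 0.24 for the interaction. The mitochondrial medians were −0.14 to 0.13, −0.12 to 0.13, −0.018 to 0.17, −0.13 to 0.013, −0.084 to 0.13 and −0.16 to 0.082 in that order. With the replicate number as a replicate block the cytosolic medians were 0.090, 0.11, −0.014, 0.21, 0.20 and 0.12, with 0 members called. Deviations of libraries sharing a number had r from −0.50 to 0.25 over 18 pairs, with a median of −0.03. Those of libraries with other numbers had r from −0.54 to 0.55 over 36 pairs, with a median of 0.02. These values show no pairing by number, and whether samples were paired in another way was not tested. DESeq2 called 1 gene for NX saline against sham saline, 4 for NX JV101 against NX saline and 3 for NX JV101 against sham saline.

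With limma on the FPKM table, at pseudocounts of 1 and 0.1, the results were cytosolic medians of 0.35 and 0.36 for the interaction, 0.43 and 0.44 for NX JV101 against NX saline, 0.41 and 0.41 against sham JV101 and 0.50 and 0.51 against sham saline. The mitochondrial medians were 0.19 and 0.20, 0.34 and 0.36, 0.15 and 0.16 and 0.27 and 0.30, and those of all genes 0.14 and 0.21, 0.21 and 0.32, 0.11 and 0.18 and 0.18 and 0.29. On this scale the sign turned for NX JV101 against sham saline in Mrpl3 (0.014 and 0.025), Mrpl37 (0.055 and 0.059), Rpl7l1 (0.051 and 0.052) and Rps2 (0.17 and 0.17). It turned for NX JV101 against NX saline in Mrpl39 (0.13 and 0.14), Mrps22 (0.11 and 0.13), Rps19bp1 (0.19 and 0.24) and Rps2 (0.27 and 0.27). It also turned in Mrps6 for sham JV101 against sham saline (0.024 and 0.032), in Rps19bp1 for NX JV101 against sham JV101 (0.031 and 0.034), and in the interaction in Rps19bp1 (0.15 and 0.17) and Rpsa (0.16 and 0.16). The cause of these was not tested.

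Single libraries turned the sign for sham JV101 against sham saline in Mrps36 (−0.22 to 0.00836), Mrps6 (−0.36 to 0.20), Rpl22 (−0.00770 to 0.15), Rpl3 (−0.20 to 0.30), Rpl37rt (−0.015 to 0.29) and Rps27a (−0.61 to 0.038). They did so for NX saline against sham saline in Rpl22l1 (−0.34 to 0.030) and Rps2 (−0.16 to 0.017), and for the interaction in Rps19bp1 (−0.22 to 0.067) and Rpsa (−0.16 to 0.033). Without the 3 libraries richest in mitochondrial DNA transcripts, chosen after the data were seen, the mitochondrial median was −0.090 for sham JV101 against sham saline, with 13 of 78 above 0, −0.13 for NX JV101 against NX saline, 0.055 for NX saline against sham saline and 0.011 for NX JV101 against sham JV101, each of the opposite sign to the value with all libraries. The cytosolic median for sham JV101 against sham saline was 0.00118. In this setting Mrpl50 had −0.00567 for sham JV101 against sham saline and Rps19bp1 0.013 in the interaction. Without the 2 libraries lowest in fibroblast markers Rps19bp1 had 0.020 and Rpsa 0.050 in the interaction. The lowest mean count of a member was 135, and the 3 libraries per group limit the precision.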
